A study of Mus musculus with 20 samples.

Results

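Hepatic iron handling was examined through the transcripts of 10 genes in the liver RNA-seq of mice on a high-fat diet (HFD) and given polychlorinated biphenyls (PCBs). The genes were chosen by name for their place in iron metabolism, with earlier results of these data known. A row of the count table was found for each of the 10 among its 21780 genes. All 10 passed the filter on low counts (15522 genes tested).

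Iron enters hepatocytes from circulating transferrin (Trf) through transferrin receptor 1 (Tfrc), and as free iron through the transporter Slc39a14. It is stored in ferritin, a shell of heavy and light chains (Fth1 and Ftl1), and leaves cells through ferroportin (Slc40a1). The liver secretes hepcidin (Hamp), a peptide hormone that removes ferroportin from cell surfaces, and its synthesis follows iron through the ligand Bmp6, which sinusoidal endothelial cells make, and the hepatocyte proteins Hfe and transferrin receptor 2 (Tfr2).

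The 20 mice were wild-type male C57Bl/6J, 5 in each group, and all of them, controls included, ate a HFD with 42% of calories from fat for 12 weeks from 8 weeks of age. At 10 weeks of age they received a single gavage. The HFD control group was given corn oil, HFD + Aroclor the commercial mixture Aroclor 1260, a largely non-dioxin-like mixture, at 20 mg/kg, HFD + PCB 126 the dioxin-like congener PCB 126 at 20 µg/kg, and HFD + Aroclor + PCB 126 (the combined exposure) both at these doses. The methods place collection 10 weeks after gavage while the labels give 12 weeks of exposure. Mice on a standard diet were not analysed here. Whole pieces of liver were used, so fewer cells of a type and less RNA per cell cannot be told apart. The p-values set the differences between groups against the spread between these mice.

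Of the 10 transcripts 4, Tfrc, Fth1, Ftl1 and Slc40a1, carry iron-responsive elements, RNA hairpins that iron regulatory proteins bind when iron is scarce. A bound hairpin in the 5′ UTR is known to block translation, and bound hairpins in the 3′ UTR of Tfrc are known to protect the transcript from decay. The GENCODE M21 transcripts of GRCm38 were searched on the transcript strand for a C, any 5 bases, the loop CAGTGN and 5 bases able to pair with the first 5, with G-T pairs allowed. The sequences below are shown because they are the known route by which iron acts on these transcripts. Each holds the match with up to 5 bases on either side, and the capitals mark the loop.

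Fth1, 5′ UTR, chr19:9982733-9982759, plus strand: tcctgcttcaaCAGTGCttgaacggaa
Ftl1, 5′ UTR, chr7:45459780-45459806, minus strand: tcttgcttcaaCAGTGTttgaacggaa
Slc40a1, 5′ UTR, chr1:45925466-45925492, minus strand: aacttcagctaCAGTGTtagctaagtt
Tfrc, 3′ UTR, chr16:32631220-32631246, plus strand: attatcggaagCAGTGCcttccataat
Tfrc, 3′ UTR, chr16:32631599-32631625, plus strand: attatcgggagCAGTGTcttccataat
Tfrc, 3′ UTR, chr16:32631664-32631690, plus strand: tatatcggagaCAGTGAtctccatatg
Tfrc, 3′ UTR, chr16:32631711-32631737, plus strand: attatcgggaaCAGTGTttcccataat

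The ferritin and ferroportin transcripts each hold 1 match in the 5′ UTR and Tfrc holds 4 in the 3′ UTR. Over all genes the pattern was found in 31 of 20916 genes with a 5′ UTR (0.148%) and in 129 of 21045 with a 3′ UTR (0.613%). A match is a description of the letters and not a measurement of binding, and the other 6 genes have no match in these windows.

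On the scale of FPKM, which here divides by the length of the longest principal transcript of each gene, the ferritin chains had the highest means of the 10 transcripts in HFD control. Mean FPKM (± SD, n = 5) was 1932 ± 525 for Ftl1, 1377 ± 286 for Fth1, 1127 ± 163 for Trf and 993 ± 483 for Hamp, and the ranges of neighbours in this order overlapped. Next came Tfr2 (110.5 ± 14.1 FPKM), apart from the genes above and below it, and then Slc39a14 (44.4 ± 12.0) and Slc40a1 (39.8 ± 3.66), whose ranges overlapped. Hfe (17.7 ± 1.74), Tfrc (4.13 ± 0.842) and Bmp6 (0.744 ± 0.0876) closed the order with no overlap between neighbours. Of the transferrin receptor transcripts, Tfr2 thus stood well above Tfrc. With the combined exposure the mean FPKM of Fth1 stood above that of Ftl1, with overlapping ranges (1291 ± 59.8 against 1040 ± 367), and Slc40a1 stood above Slc39a14 without overlap (58.7 ± 4.45 against 42.7 ± 7.84). Of the 75-base windows of the Ftl1 and Trf transcripts, 84.8% and 78.6% also occur in other genes, so their places in the order are uncertain. The order also depends on the length chosen. When the union of all exons was used instead, a choice made after seeing the data, the control means were 1396 for Ftl1, 993 for Hamp, 873 for Trf and 593 for Fth1, so that Fth1 came below Hamp and Trf, and Slc40a1 (14.9) came below Hfe (17.7). With the combined exposure Slc40a1 and Slc39a14 then overlapped (19.9 to 24.2 against 15.6 to 23.9 FPKM) and the mean of Ftl1 stood above that of Fth1 (752 against 556). Tfr2 stood above Tfrc with either length (78.3 against 3.26 in HFD control).

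**Figure D1:**
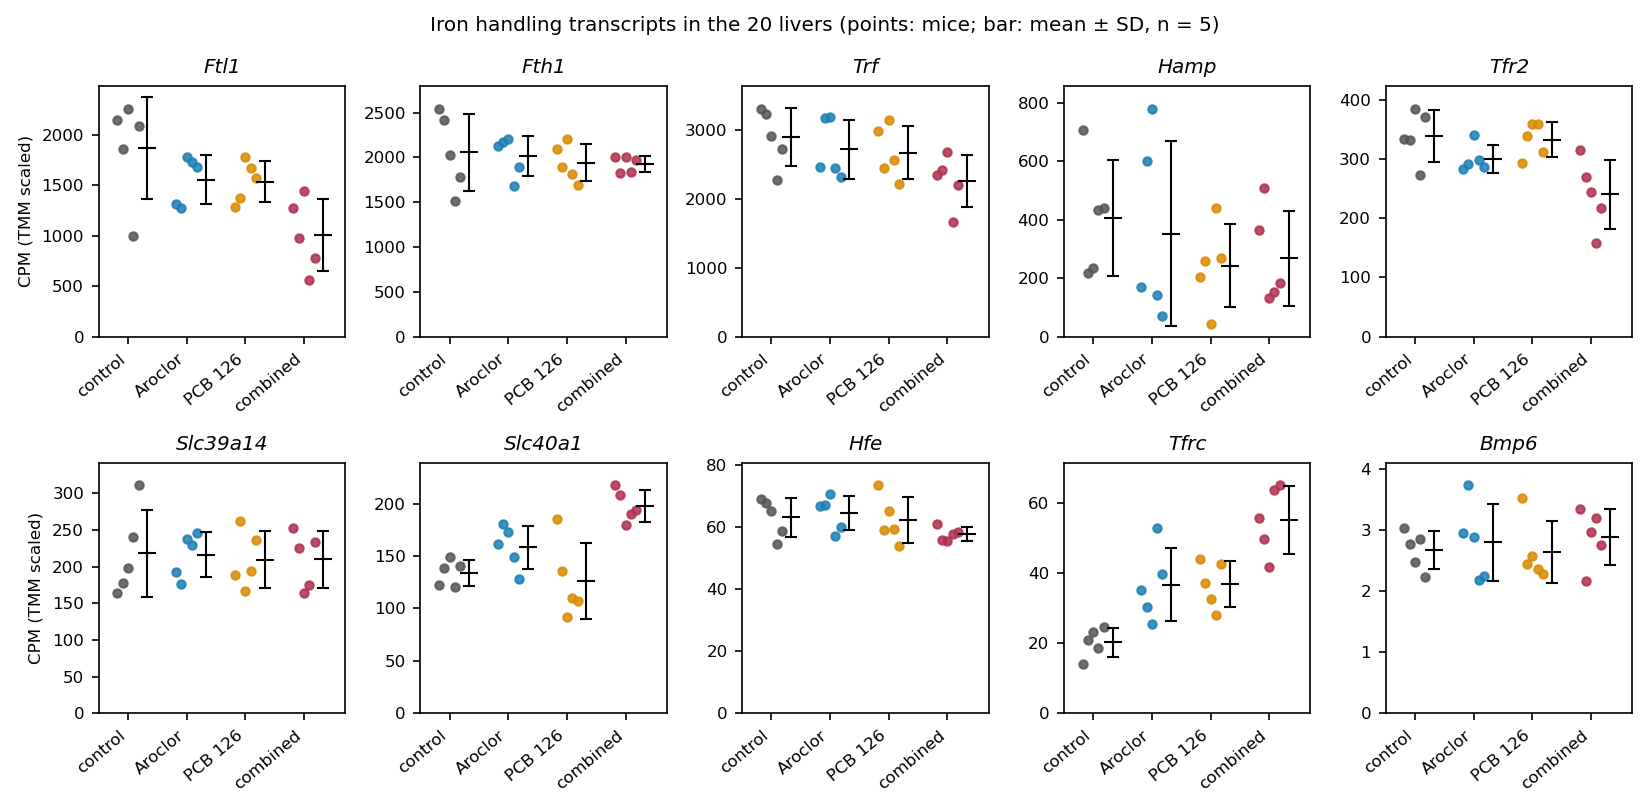
CPM (counts scaled to library size by TMM, linear axes from 0) of each of the 10 transcripts in each of the 20 livers, by exposure group. Points are mice and bars the mean ± SD (n = 5). The 5 control livers lie lowest for Tfrc, at 14.0 to 24.5 CPM, while Hamp spreads widely in every group.

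Total counts per library ran from 21836506 to 36854887, so even Bmp6, the scarcest of the 10, had 51 to 128 counts in each liver. The libraries differed in how counts followed base composition. The GC slope is the change of a library's log2 CPM, after the mean of each gene is taken away, for each 10 percentage points of transcript GC. It averaged 0.234 ± 0.131 (SD, n = 5) in HFD control and -0.337 ± 0.163 with the combined exposure, with no overlap. It averaged -0.00075 ± 0.0736 with Aroclor and 0.103 ± 0.189 with PCB 126. Each result is therefore also given after a GC correction wherever that ended or made a call. The 6 hepatocyte markers were all expressed, at a summed 70090 to 102000 CPM. As a check of the exposures, Cyp1a2, a target of the dioxin receptor, was at 249 to 517 CPM in HFD control, 1120 to 2601 with PCB 126 (log2FC 2.04, adjusted p = 0.000294) and 537 to 992.5 with the combined exposure (log2FC 1.00, adjusted p = 0.00325). Cyp1a1, another such target, reached 4.09 to 314 CPM with PCB 126 (log2FC 6.93, adjusted p = 0.00950) but 0.792 to 2.62 with the combined exposure (log2FC 1.06, adjusted p = 0.502), against 0.219 to 0.941 in HFD control. Cyp2b10, a target of the receptor CAR, had a log2FC of 1.97 with Aroclor (adjusted p = 0.222) and 1.72 with the combined exposure (adjusted p = 0.0831).

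With Aroclor none of the 10 transcripts passed the threshold of an adjusted p under 0.05 in edgeR, against 0% of all tested genes. At an unadjusted p under 0.05 there was 1 of the 10, against 17.2% of all genes (2677), and DESeq2 called 1 of the 10, against 0.870% (135). With PCB 126 edgeR again called 0 of 10, against 0.116% of all genes. There 1 of the 10 had an unadjusted p under 0.05, against 14.7% of all genes (2280), and DESeq2 called 1, against 2.06% (320). At an unadjusted p the count of 1 of 10 was thus near the share of all genes with both exposures. A count of 1 says little about the 10 as a set. In all of these cases the single transcript was Tfrc.

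With the combined exposure Tfrc and Slc40a1 rose and Ftl1 and Tfr2 fell, 4 of 10 against 32.8% of all tested genes, and no other transcript of the 10 passed. The share among the 10 was thus near that of all genes. After GC correction 1 of the 10 remained, Tfrc, against 4.30% of all genes. With PCB 126 the GC-corrected fit called 1 of 10, also Tfrc, against 0.303% of all genes. The median log2FC of the 10 was -0.023 with Aroclor, -0.072 with PCB 126 and -0.11 with the combined exposure, beside medians over all genes of -0.013, -0.018 and -0.00096. The 3 comparisons share the same control mice.

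**Figure D2:**
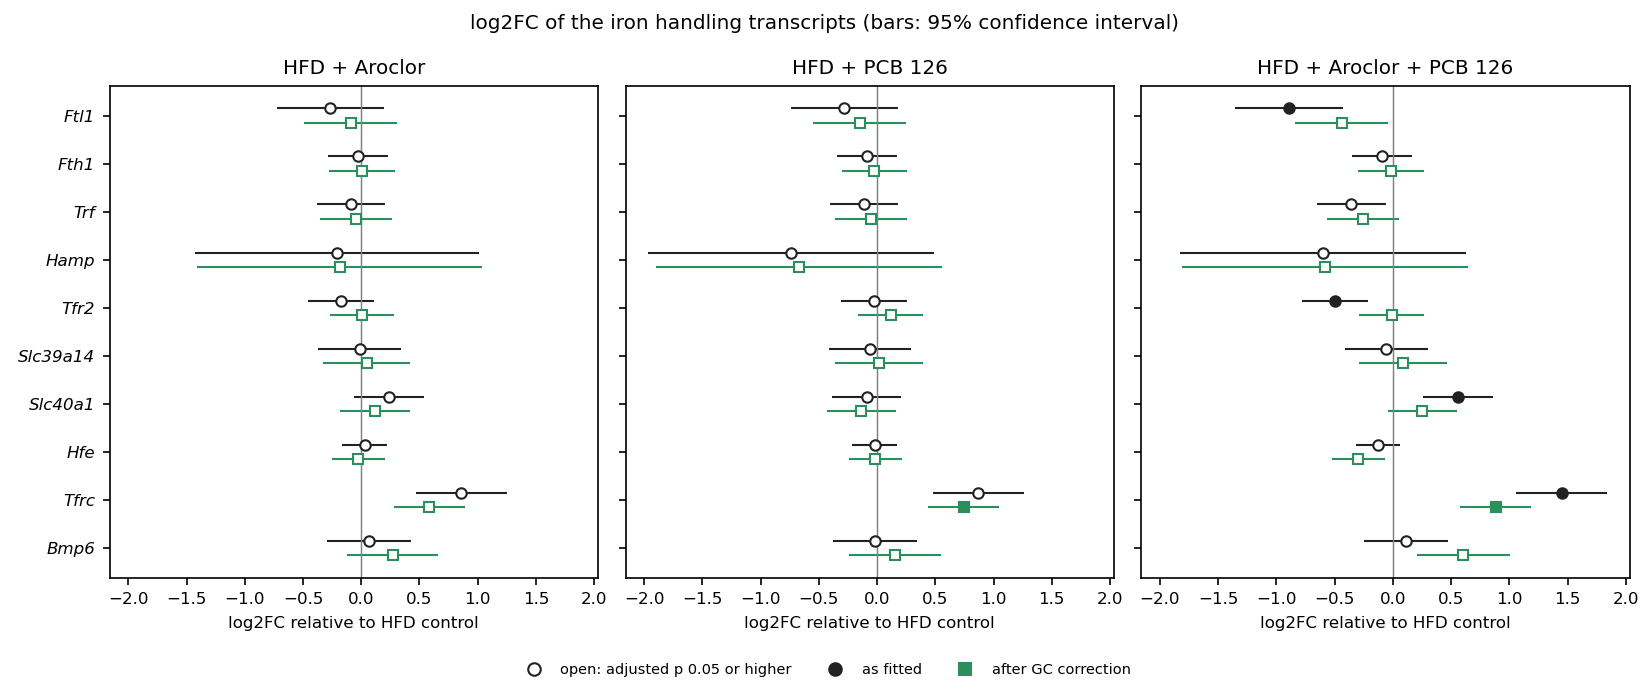
log2FC relative to HFD control (x axis) of the 10 transcripts in each exposure, as fitted by edgeR (circles) and after GC correction (squares), with 95% confidence intervals. Filled symbols have an adjusted p under 0.05. Tfrc lies right of 0 in all 3 panels in both fits, while the filled circles of Ftl1, Tfr2 and Slc40a1 in the combined panel become open squares.

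Tfrc (ENSMUSG00000022797, GRCm38 chr16:32608920-32632794, plus strand), the receptor through which cells take up transferrin-bound iron, was higher in each liver of each exposure group than in any control liver. Control livers had 14.0, 20.8, 23.0, 18.6 and 24.5 CPM and the Aroclor livers 34.95, 30.3, 25.4, 52.7 and 39.5. The PCB 126 livers had 43.9, 37.0, 32.45, 28.1 and 42.6 CPM and those with the combined exposure 55.5, 49.5, 41.5, 63.6 and 64.9. The lowest exposed liver, an Aroclor liver, was thus just above the highest control, and the combined livers overlapped with Aroclor and PCB 126 livers only at their lower end.

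The log2FC of Tfrc was 0.86 with Aroclor (SE 0.187, 95% CI 0.47 to 1.25, 1.81-fold) and did not pass (adjusted p = 0.184). By p it ranked 8 of the 15522 genes in that comparison, in which no gene passed. With PCB 126 the log2FC was 0.87 (SE 0.187, 95% CI 0.48 to 1.26, 1.82-fold, adjusted p = 0.0544) and the rank 42. With the combined exposure Tfrc rose 2.73-fold, by 1.45 on the log2 scale (SE 0.189, 95% CI 1.05 to 1.84, adjusted p = 0.000416), and ranked 7. DESeq2 gave adjusted p-values of 0.0137 and 0.00217 for the single exposures. Leaving out Aroclor replicate 4 or PCB 126 replicate 3 also brought the PCB 126 value under the threshold (adjusted p = 0.0474 and 0.0385).

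Tfrc has the lowest transcript GC of the 10, at 39.4%. Among 389 tested genes of 38 to 40% GC the median log2FC was 0.62 with the combined exposure, 0.32 with Aroclor and 0.19 with PCB 126, and Tfrc lay above these medians by 0.83, 0.54 and 0.68. After GC correction the control livers had 18.7, 26.5, 26.8, 18.4 and 27.9 CPM and the combined livers 46.3, 40.9, 37.2, 44.1 and 49.4. The PCB 126 livers had 41.3, 37.2, 41.6, 34.1 and 43.7 corrected CPM, also all above the controls, and the Aroclor livers 35.1, 30.6, 26.9, 47.4 and 37.2, of which 1 lay within the control range. The corrected log2FC was 0.59 with Aroclor (adjusted p = 0.339), 0.74 with PCB 126 (adjusted p = 0.0313) and 0.88 with the combined exposure (adjusted p = 0.00565). When the GC slope was entered as a covariate instead, the log2FC was 0.54 (adjusted p = 0.142), 0.69 (0.0159) and 0.66 (0.360). The slopes of the combined and control libraries do not overlap, and in that fit the combined exposure and the slope cannot be told apart fully. The GC correction shares this limit. It removes any difference between libraries that follows GC, whether that came with the exposure or with the handling of the libraries.

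**Figure D3:**
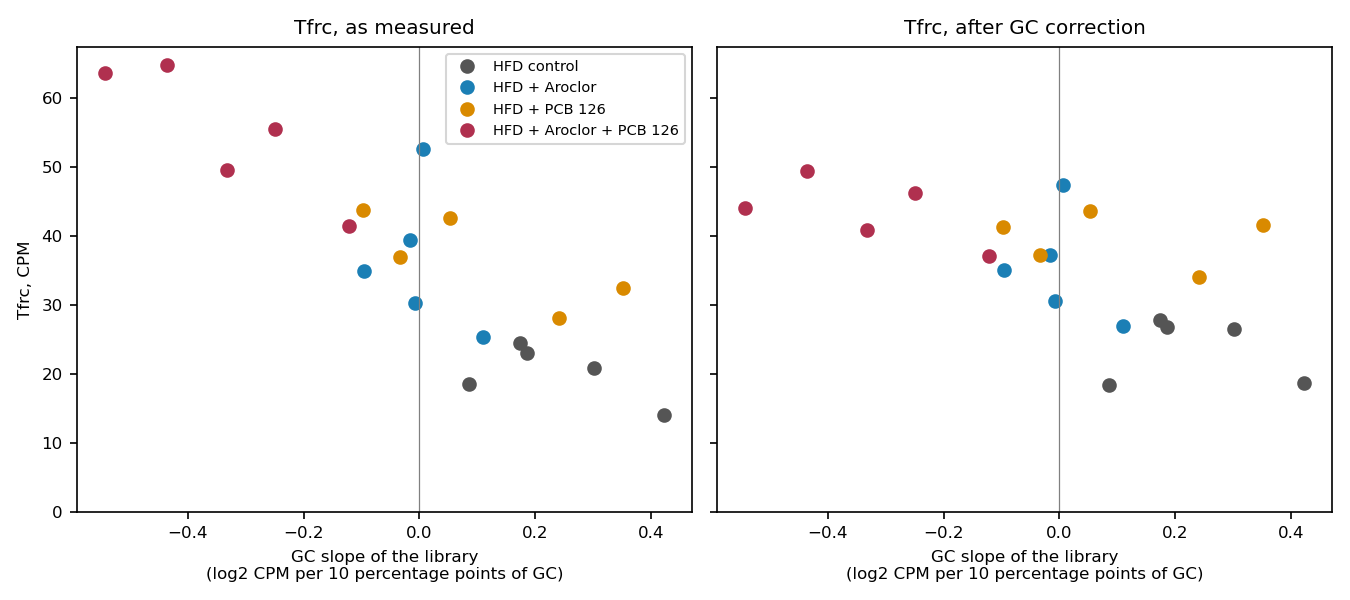
Tfrc in each liver (y axis, CPM, linear from 0) against the GC slope of its library (x axis, log2 CPM per 10 percentage points of GC), as measured (left) and after GC correction (right). Points are mice, coloured by group. The combined livers have the lowest slopes (-0.543 to -0.121) and after correction lie at 37.2 to 49.4 CPM, beside the PCB 126 livers at 34.1 to 43.7 and above the controls at 18.4 to 27.9.

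A group of livers without overlap with the controls, exposed higher, was found for 1 of the 10 transcripts with Aroclor, against 1.74% of all genes, for 1 with PCB 126, against 1.23%, and for 2 with the combined exposure, against 10.6%. Tfrc was the one in each, joined by Slc40a1 with the combined exposure. None of the 10 was lower without overlap with the combined exposure, where 8.14% of all genes were. After GC correction the counts were 0 with Aroclor (0.722% of all genes), 1 with PCB 126 (1.56%), again Tfrc, and 2 with the combined exposure (2.63%), Tfrc and Bmp6.

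Slc40a1 (ENSMUSG00000025993, chr1:45908068-45926523, minus strand), which encodes ferroportin, the iron exporter of Kupffer cells and hepatocytes, rose with the combined exposure. In HFD control the livers had 122, 138, 149, 120.3 and 141 CPM and with the combined exposure 217, 208, 179, 190.2 and 194, all above the controls. The Aroclor livers had 161, 180, 173, 149 and 128 CPM and the PCB 126 livers 185, 136, 91.9, 110.2 and 107. Both single exposures overlapped with the controls, and 4 of the 5 PCB 126 livers lay under the control median. The log2FC was 0.56 with the combined exposure (SE 0.144, 95% CI 0.26 to 0.86, adjusted p = 0.00618), 0.24 with Aroclor (adjusted p = 0.382) and -0.090 with PCB 126 (adjusted p = 0.816). Transcript GC was 45.0%, and after GC correction the combined log2FC was 0.25 (adjusted p = 0.316).

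Slc39a14 (ENSMUSG00000022094, chr14:70303469-70351425, minus strand), an importer of iron that is not bound to transferrin, was at 219 ± 59.3, 216 ± 30.5, 209.5 ± 38.9 and 210.1 ± 38.6 CPM in HFD control, Aroclor, PCB 126 and the combined exposure. The group ranges overlapped almost entirely, and the log2FC was -0.015, -0.060 and -0.056 (adjusted p = 0.969, 0.904 and 0.838).

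Ftl1 (ENSMUSG00000050708, chr7:45457944-45459884, minus strand), the light chain of ferritin, fell with the combined exposure. In the control livers Ftl1 was at 2144, 1865, 2259, 997 and 2086 CPM and in the combined livers at 1271, 977, 1441, 566 and 781. Of the 5 control livers 4 lay above every combined liver and the other among them. The Aroclor livers had 1316, 1276, 1780, 1729 and 1682 CPM and the PCB 126 livers 1283, 1377, 1785, 1670 and 1572, between the other 2 groups on average. The log2FC was -0.89 with the combined exposure (SE 0.222, 95% CI -1.36 to -0.43, adjusted p = 0.00515), -0.26 with Aroclor (adjusted p = 0.524) and -0.28 with PCB 126 (adjusted p = 0.578). Transcript GC was 57.7%, and after GC correction the combined log2FC was -0.44 (adjusted p = 0.180). Of the 75-base windows of the Ftl1 transcript, 84.8% also occur in other genes, mainly ferritin pseudogenes such as Ftl1-ps1, so its counts depend on how reads with several matches were treated and are uncertain.

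Fth1 (ENSMUSG00000024661, chr19:9980598-9985098, plus strand), the heavy chain, which oxidises iron on its way into the shell, was at 2057 ± 427, 2013 ± 224, 1941 ± 206 and 1929 ± 89.3 CPM in the 4 groups in the same order. The combined livers, at 1826 to 2005 CPM, fell inside the control range of 1517 to 2542. The log2FC was -0.032, -0.084 and -0.093 (adjusted p = 0.907, 0.799 and 0.614), with a 95% confidence interval of -0.35 to 0.17 for the combined exposure.

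Hamp (ENSMUSG00000050440, chr7:30942368-30944032, minus strand), the hepcidin gene, varied more between mice than any other of the 10, 17.5-fold from the lowest liver to the highest. The control livers had 707, 219, 234, 434 and 441 CPM and the Aroclor livers 168, 600.4, 780.4, 142 and 72.3. The PCB 126 livers had 205.5, 259.8, 44.6, 440.2 and 268 CPM and the combined livers 364, 510.2, 133, 153 and 184. Low and high livers occurred in every group and all the groups overlapped. The log2FC was -0.21 with Aroclor (95% CI -1.43 to 1.01, adjusted p = 0.867), -0.74 with PCB 126 (-1.97 to 0.49, 0.586) and -0.60 with the combined exposure (-1.83 to 0.63, 0.475). With an SE of 0.586 to 0.589, a log2FC as large as that of Ftl1 with the combined exposure lies within each of these intervals.

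Hamp2, a neighbouring paralog whose product is not known to act on plasma iron, shares 3.87% of the 75-base windows of Hamp. The control livers had 85.8, 52.2, 16.4, 5.00 and 4.04 CPM and the Aroclor livers 39.4, 67.7, 6.18, 21.6 and 5.35. The PCB 126 livers held 20.6 to 31.3 CPM and the combined livers 8.29 to 22.7, both inside the control range. Its order among the mice was not that of Hamp, since the control livers with 434 and 441 CPM of Hamp had 5.00 and 4.04 of Hamp2. The log2FC of Hamp2 was -0.23 with Aroclor (adjusted p = 0.873), -0.36 with PCB 126 (adjusted p = 0.854) and -1.04 with the combined exposure (adjusted p = 0.271).

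Tfr2 (ENSMUSG00000029716, chr5:137569840-137587481, plus strand), the hepatocyte receptor that reports transferrin saturation to hepcidin, fell with the combined exposure. Tfr2 was at 334, 332.5, 385, 273.5 and 371 CPM in the control livers and at 315, 269, 244, 158 and 217 in the combined livers. Of the 5 combined livers 4 lay under the lowest control. The Aroclor livers, at 284, 292, 341, 298 and 287 CPM, and the PCB 126 livers, at 294, 339, 359.8, 359.5 and 312, stayed inside the control range. The log2FC was -0.50 with the combined exposure (SE 0.137, 95% CI -0.78 to -0.21, adjusted p = 0.00929), -0.18 with Aroclor (adjusted p = 0.496) and -0.028 with PCB 126 (adjusted p = 0.950). Transcript GC was 57.9%, the highest of the 10, and after GC correction the combined log2FC was -0.011 (adjusted p = 0.977). The 1386 tested genes in its GC bin had a median log2FC of -0.53 with the combined exposure.

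Hfe (ENSMUSG00000006611, chr13:23702034-23710854, minus strand), mutated in the common form of haemochromatosis, was at 63.2 ± 6.20, 64.5 ± 5.51, 62.3 ± 7.47 and 57.8 ± 2.26 CPM in the 4 groups. The log2FC was 0.029, -0.021 and -0.13 (adjusted p = 0.881, 0.942 and 0.300), and every combined liver fell inside the control range. Bmp6 (ENSMUSG00000039004, chr13:38345107-38500302, plus strand), the ligand, was at 2.67 ± 0.315, 2.80 ± 0.631, 2.64 ± 0.503 and 2.89 ± 0.459 CPM. Its log2FC was 0.065, -0.018 and 0.11 (adjusted p = 0.856, 0.977 and 0.675). After GC correction the combined log2FC of Bmp6 was 0.61 (adjusted p = 0.0688), and the combined livers no longer overlapped with the controls, where as fitted their ranges, of 2.17 to 3.35 and 2.24 to 3.03 CPM, overlapped. Bmp6 overlaps Txndc5 on the opposite strand, which holds 4.26% of its 75-base windows, and whether the counting used strand is not given in the sources used here.

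Trf (ENSMUSG00000032554, chr9:103204001-103230444, minus strand), the plasma iron carrier that hepatocytes secrete, was at 2897 ± 420, 2724 ± 427, 2675 ± 382 and 2264 ± 379 CPM. The control livers had 3313, 3240, 2924, 2274 and 2735 CPM and the combined livers 2344, 2419, 2686, 1660 and 2210. Control replicate 4 lay among the combined livers and the other 4 controls above all of them. The log2FC was -0.36 with the combined exposure (SE 0.141, adjusted p = 0.0578), -0.089 with Aroclor (adjusted p = 0.752) and -0.12 with PCB 126 (adjusted p = 0.750). The combined value was under the threshold in DESeq2 (adjusted p = 0.0260), with a filter on FPKM (0.0441) and in edgeR without control replicate 4, Aroclor replicate 4, Aroclor replicate 5 or combined replicate 3 (0.0217 to 0.0411), and it was -0.26 after GC correction (adjusted p = 0.329). Gm20425, annotated over Trf on the same strand, holds 78.6% of its 75-base windows, so the Trf counts are uncertain.

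**Figure D4:**
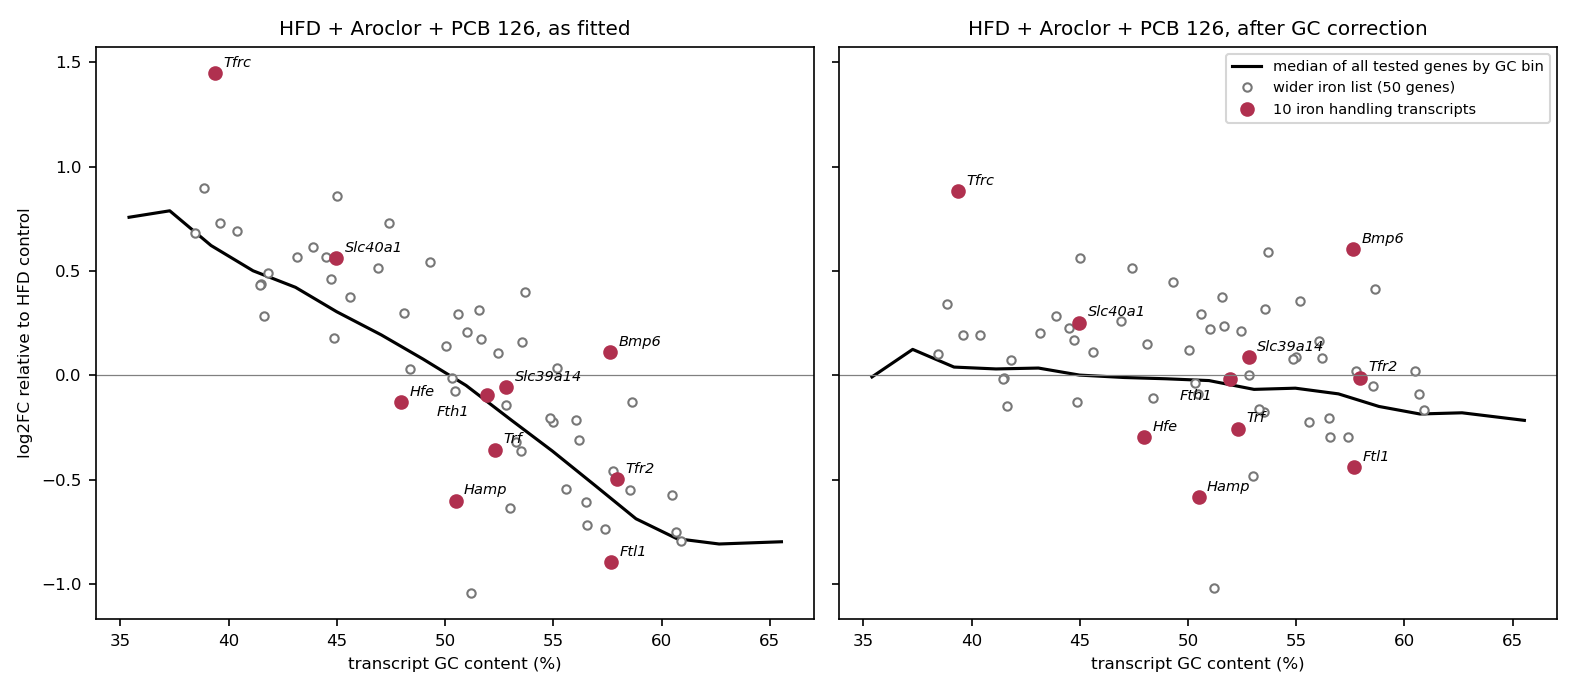
log2FC of the combined exposure relative to HFD control (y axis) against transcript GC content (x axis, %), as fitted (left) and after GC correction (right). Filled points are the 10 transcripts, open points the 50 genes of a wider iron list, and the line joins the medians of all tested genes by GC bin. As fitted, the line is at 0.76 up to 36% GC, 0.79 at 36 to 38% and 0.62 at 38 to 40%. It runs down to -0.81 at 62 to 64%. Tfr2 lies on the line, while Tfrc lies 0.83 above it.

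Of 46 tested markers of cell types 10 passed in the combined comparison, 21.7% where 32.8% of all genes did. Of 6 hepatocyte markers 3 fell, of 6 stellate cell markers 3 rose and 1 fell, of 6 Kupffer cell markers 1 rose and of 8 sinusoidal endothelial markers 1 fell. None of the 4 cholangiocyte, 6 erythroid, 3 neutrophil and 4 lymphocyte markers tested passed, and of 3 pancreatic markers 1 fell. The stellate markers summed to 129.9 to 249 CPM in HFD control and 267.5 to 326 with the combined exposure, without overlap. The Kupffer markers summed to 174 to 410 and 239 to 315 CPM, and the hepatocyte markers to 79690 to 87740 and 72360 to 102000. After GC correction 1 hepatocyte marker had fallen and no other marker passed, and no marker passed with either single exposure. The part of these differences in the iron transcripts was not tested.

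The combined exposure was then compared to each single exposure and to their sum. Against PCB 126, edgeR called 3 of the 10, beside 16.7% of all genes (2589 genes, and 0 after GC correction). That count of all genes ran from 4 to 3416 without single mice, with 4 without PCB 126 replicate 3, 269 without combined replicate 5, 288 without PCB 126 replicate 4 and 954 without combined replicate 4. Slc40a1 was higher by 0.65 on the log2 scale (SE 0.144, adjusted p = 0.0143), Tfrc was higher by 0.58 (SE 0.185, adjusted p = 0.0386) and Tfr2 had a log2FC of -0.47 (SE 0.137, adjusted p = 0.0287). After GC correction the log2FC was 0.39, 0.14 and -0.13 (adjusted p = 0.155, 0.616 and 0.624). Without PCB 126 replicate 3 none of the 3 passed (adjusted p = 0.0538 for Slc40a1, 0.105 for Tfrc and 0.0817 for Tfr2). In the sample labels the internal names of PCB 126 replicates 2 and 3 carry the same group tag but different running sample numbers. The stated replicate numbers were followed here. The other 7 had a log2FC of -0.61 to 0.14, with a lowest adjusted p of 0.0612.

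Against Aroclor, edgeR called 0 of 10, beside 0.412% of all genes (64 genes, and 3 after GC correction). At an unadjusted p under 0.05 there were 4 of 10, against 23.4% of all genes (3639), and DESeq2 called 2 of 10, against 8.65% (1343). The edgeR count of all genes ran from 0 to 1036 without single mice and was 1036 without combined replicate 3, 513 without control replicate 4 and 291 without combined replicate 1, while the other fits gave 0 to 53. The log2FC ran from -0.63 to 0.59, and the lowest adjusted p was 0.0909. The upper end was Tfrc, named here after its value was seen, at 0.59 (GC-corrected 0.30, adjusted p = 0.497). The interaction, which sets the combined log2FC against the log2FCs of Aroclor and PCB 126 added together, gave 0 of 10 in edgeR, beside 0% of all genes. At an unadjusted p under 0.05 it gave 0 of 10, against 11.9% of all genes (1846), and DESeq2 called 0 of 10, against 0.00644% (1 gene). Its values for the 10 ran from -0.35 to 0.41 with a lowest adjusted p of 0.431. For Tfrc, also named after its value was seen, it was -0.28 (95% CI -0.82 to 0.27), so the interval held 0, values under it and values above it.

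A wider list of 50 iron genes, all of them tested, was counted by role. With Aroclor edgeR called 0 of 50. At an unadjusted p under 0.05 there were 6 of 50, against 17.2% of all genes, and DESeq2 called 0, against 0.870%. With PCB 126 edgeR called 0 of 50. At an unadjusted p there were 10 of 50, against 14.7% of all genes, and DESeq2 called 1 of 50, against 2.06%. With the combined exposure 12 rose and 6 fell, 36% of the list, where 32.8% of all genes passed, and after GC correction 1 of the 50 did, or 2% where 4.30% of all genes did. Of the 16 genes of hepcidin control 5 rose and 1 fell, of 11 in uptake and transport none passed, and of 10 in heme iron 2 rose and 1 fell. Of 6 in storage and sensing 3 rose and 1 fell, and of 7 in mitochondrial iron 2 rose and 3 fell. The median log2FC of the list was 0.14 with Aroclor, 0.075 with PCB 126 and 0.15 with the combined exposure. Over all genes it was -0.0135, -0.018 and -0.00096. After GC correction the medians of the list were 0.11, 0.090 and 0.095, beside -0.0057, 0.025 and -0.030 over all genes.

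**Figure D5:**
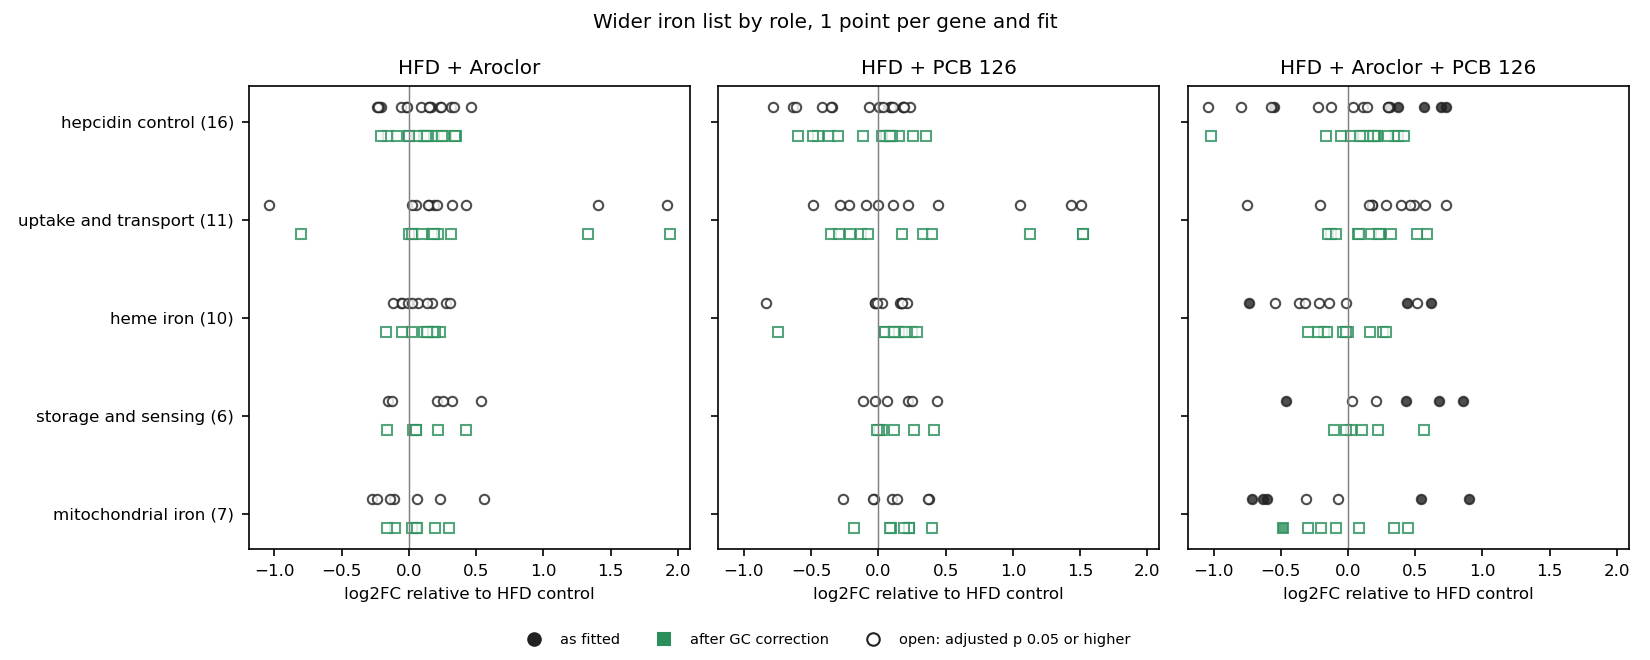
log2FC relative to HFD control (x axis) of the 50 genes of the wider iron list by role (rows, number of genes in brackets), as fitted (circles) and after GC correction (squares), 1 point per gene. Filled symbols have an adjusted p under 0.05. The 18 filled circles all lie in the combined panel, where 1 square is filled.

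The 2 transcripts that varied most over the 20 livers were Hamp (SD of log2 CPM 1.07) and Tfrc (0.605). For each, the 3 genes whose centred log2 CPM followed it most closely were found among 11340 genes, by the root mean square difference over the 20 livers. Nearest to Hamp were Id2 (0.764), Id3 (0.817) and Arid5b (0.824), where the median gene was at 1.08, so none of them followed Hamp closely. Id2 and Id3 encode inhibitors of helix-loop-helix transcription factors. The highest Id3 level, 48.6 CPM, was in Aroclor replicate 3, which also had the highest Hamp, and the next, 43.5 CPM, was in control replicate 1, the liver with the second highest Hamp. Control replicate 5 and PCB 126 replicate 4 came next in Id3, at 29.15 and 24.6 CPM, with 441 and 440.2 CPM of Hamp. Other livers followed less closely. Aroclor replicate 2 and combined replicate 2, with 600.4 and 510.2 CPM of Hamp, had 17.6 and 16.1 CPM of Id3. Control replicate 2, with 219 CPM of Hamp, had 18.6 CPM of Id3.

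Nearest to Tfrc were Rab11fip2 (0.185), Pank3 (0.2355) and Dmd (0.2501), against a median gene at 0.647. Rab11fip2 encodes a partner of the recycling endosome GTPase Rab11, Pank3 a pantothenate kinase of coenzyme A synthesis and Dmd dystrophin. Rab11fip2 was at 6.37 to 8.09 CPM in HFD control and 15.2 to 19.1 with the combined exposure. Like Tfrc these 3 genes have a low transcript GC, of 42.1, 39.6 and 41.3%, the end of the range at which counts were higher in the libraries of low GC slope. After GC correction their log2FC with the combined exposure was 0.83, 0.62 and 0.75 (adjusted p = 0.0105, 0.0351 and 0.0172 in edgeR). With the single exposures none of the 3 passed in edgeR, as fitted or after GC correction. The part of base composition in the likeness to Tfrc was not tested.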

How the data were processed

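RNA-seq libraries of 20 mouse livers were analysed, 5 mice per group, grouped by exposure in the sample labels. The authors prepared stranded TruSeq libraries from polyadenylated RNA, aligned reads to GRCm38.p6 with STAR 2.6 and deposited raw counts per Ensembl gene from HTSeq 0.10.0. The annotation release and strand setting are not given in the sources used here. Genes with at least 10 counts in total were tested (15522), which removed none of the 10 transcripts. Counts were scaled by TMM and fitted in edgeR 4.0.16 (R 4.3.3) with a coefficient per group (16 residual degrees of freedom). Two-sided quasi-likelihood tests were adjusted by Benjamini-Hochberg over all tested genes, and a call is an adjusted p under 0.05. CPM values are TMM scaled, and the FPKM of the 10 transcripts are these divided by the length in kilobases of the longest principal transcript in GENCODE M21, or by the union of all exons where stated. Standard errors and intervals (95%) derive from the fit. Total counts were 21836506 to 36854887 per library, so counting error is small beside the spread between mice except for Bmp6. No 2 libraries of a group agreed within sampling noise (chi-square over degrees of freedom at least 18.7 in 40 pairs).

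For GC correction, the deviation of log2 CPM from each gene's mean was smoothed over transcript GC per library by a spline of 6 degrees of freedom and entered as an offset. Alternatives were RLE size factors, no filter, a filter of 1 FPKM (by the union of exons) in 3 libraries and on average, DESeq2 1.42.0, a replicate block, the block with GC correction, the GC slope as a covariate, and each mouse left out. Only the main fit, the GC correction and the GC slope covariate were run on simulated counts, and the other alternatives were not. These counts held no GC trend, so they cannot show how well such a trend is removed. The 10 genes, the wider list of 50 and the marker lists were chosen with earlier results of these data known. All 10 genes are named in comparisons with HFD control, and in other comparisons those with an adjusted p under 0.05. A gene of the wider list was to be named if it passed as fitted and after GC correction, and that result is not reported here. The 3 nearest genes are given for the 2 transcripts of largest SD. Hamp2 is named as the paralog of Hamp, and Cyp1a1, Cyp1a2 and Cyp2b10 as exposure markers.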

Additional observations from a re-analysis of the deposited data

Results flagged for a closer look

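In each group of 5 mice the highest and lowest CPM of the 10 transcripts was compared with its nearest neighbour by Dixon's ratio, and 2 of 40 groups had a mouse beyond the critical value of 0.71, where chance gives about 1 in 20. Bmp6 was at 3.519 CPM in PCB 126 replicate 1, against 2.29 to 2.58 in the other 4 livers of that group. Tfr2 was at 340.7 CPM in Aroclor replicate 3, against 284 to 298 in the other 4. Neither gene passed the test in the comparison concerned.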

How the results depend on the processing

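RLE size factors and the absence of a filter changed no direction and no call of the 34 gene results and moved none of the 9 counts beyond 1.5 times. Of the 10 transcripts, edgeR called 0 with Aroclor (0 of all 15522 genes) and DESeq2 1 (135 of 15522). With PCB 126 the number rose from 0 to 1 with the FPKM filter, DESeq2, the replicate block, GC correction, both together and the GC slope covariate, each time Tfrc. Of all genes, 47 of 8995 passed there with the FPKM filter, and 320, 101, 47, 145 and 676 of 15522 in the other fits. With the combined exposure the number among the 10 fell from 4 to 1 with GC correction, 1 with the block and GC correction, and 0 with the slope covariate. Of all 15522 genes 5089 passed there in the main fit and 668, 933 and 335 in these. Against Aroclor the number among the 10 was 1 with the FPKM filter, which removed Bmp6 and called 636 of 8995 genes. It was 2 with DESeq2, which called 1343 of 15522 genes. Against PCB 126 it was 0 with GC correction, alone or with the block, and with the covariate, where 0, 153 and 0 of 15522 genes passed. Of the wider list, DESeq2 and the covariate each called 1 with PCB 126, and with the combined exposure 1 remained with GC correction, 3 with the block and GC correction and 0 with the covariate. The cause of these shifts was not tested.

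Leaving out each mouse in turn gave 0 to 0 of the 10 with Aroclor, 0 to 1 with PCB 126, 4 to 5 with the combined exposure, 0 to 2 against Aroclor, 0 to 4 against PCB 126 and 0 to 0 for the interaction. Of all genes, 0 to 2, 4 to 127, 3894 to 5679, 0 to 1036, 4 to 3416 and 0 to 0 passed in the same order. For the wider list, leaving out each mouse gave 0 to 0, 0 to 1 (1 without control replicate 1) and 15 to 22. Against Aroclor the count of 2 of the 10 came without combined replicate 3. Against PCB 126 the count of the 10 was 0 without PCB 126 replicate 3 and 1 without PCB 126 replicate 4, combined replicate 4 or combined replicate 5. Tfrc, Tfr2, Ftl1 and Slc40a1 passed in 20 of 20 such fits of the combined exposure against HFD control. Trf passed in 4. Against PCB 126, Tfrc passed in 12 of 20, Tfr2 in 16 and Slc40a1 in 19.

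The log2FC changed sign only in values that did not pass, apart from Tfr2, Ftl1 and Tfrc under the covariate. With GC correction in the Aroclor comparison it was -0.024 for Hfe, 0.0080 for Tfr2, 0.0074 for Fth1 and 0.046 for Slc39a14, and with the block added -0.018, 0.012, 0.021 and 0.070. With the block alone Slc39a14 was at 0.0077. With the covariate Hamp was at 0.094, Tfr2 at 0.031, Trf at 0.15, Fth1 at 0.12 and Ftl1 at 0.205. In the PCB 126 comparison GC correction gave 0.15 for Bmp6, 0.12 for Tfr2 and 0.018 for Slc39a14, the block with it 0.14, 0.12 and 0.030, and the covariate 0.087 for Tfr2, 0.026 for Trf and 0.0082 for Fth1. In the combined comparison Slc39a14 was at 0.086 with GC correction and 0.10 with the block added, and Fth1 at 0.0072 with the latter. The covariate gave 0.22 for Hamp, 0.0010 for Tfr2, 0.20 for Trf, 0.27 for Fth1 and 0.18 for Ftl1, and -0.023 for Tfrc against PCB 126. Without single mice the sign also changed for Hamp (-0.73 to 0.087), Bmp6 (-0.060 to 0.13), Hfe (-0.019 to 0.063), Fth1 (-0.12 to 0.056) and Slc39a14 (-0.10 to 0.15) with Aroclor, for Bmp6 (-0.14 to 0.033), Hfe (-0.088 to 0.026), Tfr2 (-0.096 to 0.022), Fth1 (-0.18 to 0.0034), Slc40a1 (-0.27 to 0.0042) and Slc39a14 (-0.15 to 0.10) with PCB 126, and for Slc39a14 (-0.14 to 0.10) with the combined exposure.

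The replicate numbers do not pair the mice, which are different animals. Over 30 pairs of libraries with the same number the correlation of deviations ran from -0.154 to 0.765, with 14 over 0.1, and 7 of 20 libraries correlated best with one of their own number. The median was 0.0836 for these pairs and -0.0173 for pairs between groups with different numbers. Whether libraries of the same number shared a step of processing was not tested. With the block, 26, 101 and 5292 genes passed against HFD control, where 0, 18 and 5089 did without it, and besides Tfrc with PCB 126 (adjusted p = 0.0318) Trf passed with the combined exposure (0.0195). The covariate called 447, 676 and 335, DESeq2 135, 320 and 5620, the FPKM filter 0, 47 and 4705, and the fits without single mice 0 to 2, 4 to 127 and 3894 to 5679. Depth limits little here apart from Bmp6, while the spread between mice limits Hamp.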
